A study of Mus musculus with 15 samples.

Results

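Collagens are the structural proteins of the muscle matrix, and their chains were followed here through RNA sequencing of mouse skeletal muscle from CD47-KO, exercise and sedentary groups. The collagen genes were taken as all genes of the deposited count table with a symbol of the form Col, a type number, the letter a and a chain number, and with a mean of at least 0.1 CPM (counts scaled to the total of the library) over the 15 libraries. This rule kept 39 of 22798 genes in the table. It used only the mean over all libraries, so that comparisons between groups were not part of it. Of 43 collagen genes in the table, 4 were under the minimum. Col2a1 (0.0976 CPM), Col6a5 (0.0877 CPM), Col9a3 (0.0415 CPM) and Col10a1 (0.0330 CPM) were left out, while Col9a2 (0.114 CPM), Col17a1 (0.123 CPM) and Col4a6 (0.127 CPM) were just inside. By the established classes of collagen, 10 were chains of fibrillar collagens, 6 of the basement membrane collagen type IV, 8 of fibril-associated collagens with interrupted triple helices (FACIT), 4 of the beaded-filament collagen type VI, 2 of multiplexins, 3 of network or anchoring collagens, 4 of transmembrane collagens and 2 of other types. All 39 passed the filter on low counts and were tested among 17975 genes.

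Every collagen is built from 3 chains that wind into a triple helix, either from copies of a single chain or from chains of several genes. Fibrillar collagens assemble outside the cell into the ropes that carry force along tendon and through the perimysium. Type IV chains instead form a sheet-like network in the basement membrane around each muscle fibre and capillary, type VI filaments lie between that sheet and the fibrils, and FACIT chains sit on the surface of fibrils. Most fibrillar and type VI collagen of muscle is made by fibroblasts, while type IV chains are also made by muscle and endothelial cells.

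The mice were of the strain C57BL/6 and 12 months old in all 3 groups, were on a normal diet and had fasted overnight before the muscle was taken. There were 3 libraries with the label CD47-KO, the knockout of CD47, a membrane receptor for thrombospondin 1. Another 6 came from exercise mice, for which the labels give neither the genotype nor the training, and 6 came from sedentary wild-type mice. The labels do not say which muscle was used, nor whether the libraries of a group came from separate animals, so the tests weigh differences only against the spread among these libraries, which may be technical. A batch that held the CD47-KO libraries alone cannot be told apart from their genotype.

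Total counts ran from 76005277 to 84364189 in CD47-KO, from 54851831 to 77628546 in exercise and from 50928458 to 70774311 in sedentary libraries. Mitochondrially encoded genes took 18.1 to 19.2% of counts in CD47-KO, 4.49 to 12.5% in exercise and 4.77 to 18.2% in sedentary libraries. Cd47 itself had 11.5 to 12.1 CPM in the libraries labelled CD47-KO, 10.8 to 15.7 CPM in exercise and 11.4 to 16.4 CPM in sedentary libraries. Its log2 fold change against sedentary was -0.26 (SE 0.17, adjusted p = 0.295), and -1.20 (adjusted p = 0.00172) after a correction for the GC content of transcripts, so without that correction Cd47 did not check the label, and CD47-KO below stands for the libraries so labelled. Of the table's values from 1 to 15, 32.1 to 33.6% in CD47-KO, 43.6 to 50.2% in exercise and 41.7 to 48.5% in sedentary libraries were 4, 8 or 12. This leaves the lowest levels in particular uncertain. The share was lower in every CD47-KO library than in any other library, and its part in the comparisons was not tested. Markers of muscle fibres were present in every library, with a summed level of 123985 to 179144 CPM in CD47-KO, 192986 to 331312 CPM in exercise and 155653 to 297693 CPM in sedentary libraries over 10 genes.

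Type IV chains are encoded as pairs of neighbouring genes that point away from a shared start region. Col4a1 (ENSMUSG00000031502.11, chr8:11198423-11312826, minus strand of GRCm38) and Col4a2 (ENSMUSG00000031503.13, chr8:11312805-11449287, plus strand) overlapped by 22 bases in the annotation. Col4a3 (ENSMUSG00000079465.8, chr1:82586921-82722059, plus strand) and Col4a4 (ENSMUSG00000067158.9, chr1:82448423-82586849, minus strand) had 71 bases between their starts. On the X chromosome 1308 bases lay between the starts of Col4a5 and Col4a6. The sequences below, from RefSeq on GRCm38.p6, run from 250 bases before to 50 bases after the start of Col4a1 (chr8:11312777-11313076, minus strand), Col4a2 (chr8:11312555-11312854, plus strand), Col4a4 (chr1:82586800-82587099, minus strand) and Col1a2 (chr6:4505368-4505667, plus strand), the collagen with the highest level per length. Capitals mark CCAAT and GGGCGG, or their reverse complements, the letters bound by the factors NF-Y and Sp1.
Col4a1: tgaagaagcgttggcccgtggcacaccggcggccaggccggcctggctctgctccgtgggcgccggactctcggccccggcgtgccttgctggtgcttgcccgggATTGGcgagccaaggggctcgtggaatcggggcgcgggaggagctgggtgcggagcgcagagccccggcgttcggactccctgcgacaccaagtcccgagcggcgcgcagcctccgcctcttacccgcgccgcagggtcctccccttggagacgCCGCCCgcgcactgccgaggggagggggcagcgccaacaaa
Col4a2: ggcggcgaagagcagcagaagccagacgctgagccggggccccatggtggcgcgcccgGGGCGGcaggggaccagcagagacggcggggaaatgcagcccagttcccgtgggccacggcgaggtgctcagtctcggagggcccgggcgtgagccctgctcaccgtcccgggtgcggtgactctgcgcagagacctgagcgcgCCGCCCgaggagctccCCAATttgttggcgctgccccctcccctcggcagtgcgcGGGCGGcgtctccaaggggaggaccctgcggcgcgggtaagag
Col4a4: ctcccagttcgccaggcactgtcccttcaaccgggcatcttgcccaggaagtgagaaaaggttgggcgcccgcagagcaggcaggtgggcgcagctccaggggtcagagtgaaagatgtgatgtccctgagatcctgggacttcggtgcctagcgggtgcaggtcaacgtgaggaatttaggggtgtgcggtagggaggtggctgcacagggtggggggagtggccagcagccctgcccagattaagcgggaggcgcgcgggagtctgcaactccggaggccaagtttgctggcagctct
Col1a2: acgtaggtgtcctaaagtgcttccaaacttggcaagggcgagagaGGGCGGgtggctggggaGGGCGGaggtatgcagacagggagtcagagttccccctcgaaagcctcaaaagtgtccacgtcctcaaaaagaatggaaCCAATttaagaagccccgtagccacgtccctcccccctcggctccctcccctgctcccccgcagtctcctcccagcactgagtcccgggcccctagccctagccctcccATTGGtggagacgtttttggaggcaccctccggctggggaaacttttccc

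The windows of Col4a1 and Col4a2 share 78 bases, read on opposite strands, and the GGGCGG at 7 bases after the Col4a2 start is the same site as the CCGCCC in the Col4a1 window. Col4a1 had a CCAAT on the other strand at 145 bases before its start, and Col4a2 had a CCAAT at 32 bases before its start. Col1a2 had a CCAAT at 109 bases before and, on the other strand, at its RefSeq start, and GGGCGG at 205 and 188 bases before it. In the annotation used for the places of genes, Col1a2 begins at base 4504814 of chromosome 6, outside this window. Its offsets and motifs thus hold for the RefSeq start alone. Neither motif was in the Col4a4 window, and the TATA box TATAAA was in none of the 4. Over all 32851 RefSeq promoters of this length, searched on both strands, 37.4% held CCAAT, 35.7% GGGCGG and 13.6% TATAAA. The windows were 74.0% GC for Col4a1, 73.7% for Col4a2, 63.3% for Col4a4 and 61.0% for Col1a2. Of the 39 collagen genes, 32 matched a RefSeq promoter, and Col1a1 and Col4a3 were among those without an entry.

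Compared per length of transcript, since longer transcripts collect more counts, the most abundant collagens were the chains of types I, IV, III and VI. As means over the 15 libraries, Col1a2, the second chain of type I, had 15.4 CPM per kilobase (kb), Col4a2 12.7, Col4a1 11.9, Col1a1 8.77, Col3a1, the sole chain of type III, 8.11, Col6a1 7.60 and Col6a2 5.61 CPM per kb. The next were Col5a3 of the fibril-initiating type V (2.37 CPM per kb), the multiplexin Col15a1 (2.22) and Col22a1, a FACIT chain of the junction between muscle and tendon (2.15). Col4a6 was lowest at 0.0193 CPM per kb. All further levels are CPM scaled between libraries unless given per kb.

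Fibrillar chains summed to 21.1, 22.3 and 19.8 CPM per kb in CD47-KO libraries 1 to 3. The exercise libraries had 67.0, 51.3 and 56.2 CPM per kb in numbers 1 to 3 and 10.7, 12.1 and 17.2 in numbers 4 to 6. The sedentary libraries had 180, 43.0 and 39.5 CPM per kb in numbers 1 to 3 and 17.6, 11.7 and 14.6 in numbers 4 to 6. The CD47-KO libraries thus lay close together and between the number sets of both other groups, and sedentary library 1 stood far above every other library. Type IV chains summed to 17.5, 16.4 and 19.6 CPM per kb in CD47-KO, 16.7 to 41.7 in exercise and 15.1 to 54.5 in sedentary libraries. FACIT chains summed to 4.10, 3.36 and 3.89 CPM per kb in CD47-KO, 1.42 to 6.52 in exercise and 2.06 to 10.2 in sedentary libraries. Type VI chains summed to 8.11, 7.15 and 6.44 CPM per kb in CD47-KO, 9.5 to 26.2 in exercise and 7.49 to 44.7 in sedentary libraries, so that only CD47-KO library 1 exceeded any library of the other groups. In the plot of class sums the fibrillar panel has the widest and the type IV panel the narrowest spread of the 4.

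**Figure D1:**
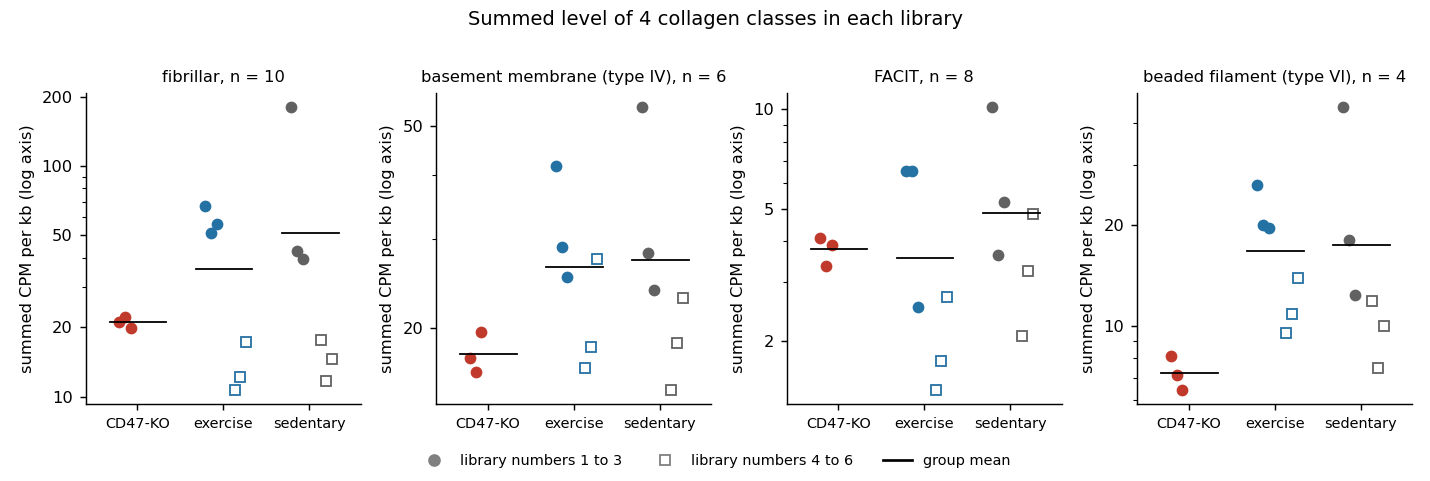
Summed level (CPM per kb, log axis) of the fibrillar (n = 10), type IV (n = 6), FACIT (n = 8) and type VI (n = 4) chains in each CD47-KO, exercise and sedentary library. Filled circles are library numbers 1 to 3, open squares numbers 4 to 6 and lines the group means. The fibrillar sum of sedentary library 1 is 180 CPM per kb, while sedentary libraries 4 to 6 have 11.7 to 17.6.

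Within the exercise and the sedentary group alike, collagen levels were higher in numbers 1 to 3 than in numbers 4 to 6. The labels give this split no meaning except a gap in the numbering of the exercise libraries at the same place, and it was chosen here with earlier results of these data known. Numbers 1 to 3 were all above numbers 4 to 6 for 18 of 39 collagens in exercise, against 19.6% of all genes tested, and for 21 of 39 in sedentary, against 18% of all genes. None of the 39 was all below in either group. By class this held for 7 of 10 fibrillar chains in exercise and 8 of 10 in sedentary, for 1 and 3 of 6 type IV chains, for 2 and 3 of 8 FACIT chains and for 4 and 1 of 4 type VI chains. The median ratio of the mean of numbers 1 to 3 to that of numbers 4 to 6 was 2.90 in exercise and 2.94 in sedentary for fibrillar chains, 1.48 and 1.91 for type IV chains, 3.23 and 2.04 for FACIT chains, and 1.00 and 1.03 over all genes.

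The size of this gap differed between chains. For Col1a1 the ratio was 6.18 in exercise and 11.6 in sedentary, for Col1a2 6.45 and 10.3, and for Col3a1 3.28 and 3.64. Col4a1 had 1.43 and 2.11, Col4a2 1.67 and 1.71, and Col4a3 0.886 and 1.26. Col12a1, a FACIT chain of tendon and fascia, had the ratios 8.51 and 19.3, and Col22a1 2.74 and 1.47. Markers of tendon and cartilage, 10 genes found in the table, summed to 47.4 to 68.1 CPM in CD47-KO, to 130, 150, 40.2, 32.1, 34.2 and 46.2 CPM in exercise libraries 1 to 6, and to 436, 44.4, 102, 39.4, 31.7 and 67.6 CPM in sedentary libraries 1 to 6. Sedentary library 1 was highest for these markers as for the fibrillar chains. Matn3 was at 0 in every library except sedentary 1 and 2, and Mkx was at 0 in exercise 3 to 5 and sedentary 2, 4 and 5, with Cilp2 or Kera in some of these. Fibroblast markers, 10 genes, summed to 462 to 523 CPM in CD47-KO, 438 to 793 CPM in exercise and 257 to 675 CPM in sedentary libraries, with none at 0. The part of tendon, fibroblast or any other cells in the collagen levels was not tested.

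Against sedentary muscle, CD47-KO muscle had lower levels of Col6a2, a chain of the filaments that anchor the basement membrane of the muscle fibre, and of Col18a1, the basement membrane multiplexin whose end piece is endostatin. These 2 of 39 collagens passed the test across all genes (edgeR's quasi-likelihood test, Benjamini-Hochberg adjusted p under 0.05), both lower, against a background of 8.75% of 17975 genes called lower. None was higher, where 11.9% of all genes were. At an unadjusted p under 0.05, 2 were higher and 6 lower, where 6025 of all 17975 genes were under it in either direction. DESeq2 called 1 higher (Col4a3) and 3 lower (Col6a2, Col6a3 and Col18a1), beside 15.2% and 13% of all genes. Collagens were thus called in a smaller share than all genes, in either direction. The median log2 fold change was -0.71 over the 39 collagens, with 12 above 0, and -0.11 over all genes tested.

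Type VI filaments are made of Col6a1, Col6a2 and another, longer chain such as Col6a3, and mutations in each of these genes cause muscular dystrophy in people. Col6a2 (ENSMUSG00000020241.13, chr10:76595762-76623630, minus strand) had 13.2, 11.7 and 11 CPM in CD47-KO libraries, against a lowest, median and highest of 15.9, 22.6 and 82.4 CPM in sedentary libraries. Every CD47-KO library was below every sedentary one, with a log2 fold change of -1.47 (SE 0.47, adjusted p = 0.0359). Col6a1 (ENSMUSG00000001119.7, chr10:76708792-76726168, minus strand), its neighbour on chromosome 10, had 17.8, 15.4 and 13.7 CPM in CD47-KO libraries, against 12.3, 25.3 and 94.4 CPM in sedentary libraries, which overlap, and a log2 fold change of -1.17 (SE 0.53, adjusted p = 0.133). Col6a3 had 8.79, 8.33 and 7.98 CPM in CD47-KO libraries, against 10.3, 12.2 and 47.1 CPM in sedentary libraries. These ranges did not overlap, but the log2 fold change of -1.16 (SE 0.46, adjusted p = 0.0817) did not pass. Col6a6, a chain that can stand in for Col6a3, had 0.743 to 1.96 CPM in CD47-KO and 0.925 to 3.98 CPM in sedentary libraries. The 4 type VI chains had a median log2 fold change of -1.16, with 0 above 0.

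Col18a1 had 3.38, 3.61 and 2.72 CPM in CD47-KO libraries, against 4.34, 6.25 and 14 CPM in sedentary libraries. The groups did not overlap, and the log2 fold change was -1.18 (SE 0.36, adjusted p = 0.0269). Its relative Col15a1, which ties basement membranes to the matrix outside, had 8.64, 8.53 and 3.75 CPM in CD47-KO libraries, within the 5.74 to 28.5 CPM of sedentary libraries except for the last. Both calls were lost in a fit of only these groups and after the GC correction, in the second with a log2 fold change of -0.98 (adjusted p = 0.141) for Col6a2 and -0.58 (adjusted p = 0.189) for Col18a1. Both were lost without any single CD47-KO library (adjusted p = 0.104 to 0.141 for Col6a2 and 0.0617 to 0.138 for Col18a1) and without sedentary library 2 (0.0594 and 0.0540), and Col6a2 also without exercise library 2, 3 or 6, which share the estimate of spread (0.0502 to 0.0511). In muscle pieces, fewer cells of a type and less RNA per cell cannot be told apart.

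Fibrillar chains had lower means in CD47-KO than in sedentary muscle for most of the 10 genes, but none passed the test. Col1a1 (ENSMUSG00000001506.10, chr11:94936224-94953042, plus strand), the main chain of type I, had 16.2, 16.8 and 14.2 CPM in CD47-KO libraries, against 8.18, 30.8 and 331 CPM in sedentary libraries. The CD47-KO values lay inside the sedentary range, and the log2 fold change of -2.30 (SE 1.11, adjusted p = 0.159) became -0.82 without sedentary library 1. Col3a1, the type III chain of pliable fibrils, had 28.5, 34 and 30.2 CPM in CD47-KO libraries, against 17.8, 35.9 and 143 CPM in sedentary libraries, and a log2 fold change of -0.75 (SE 0.64, adjusted p = 0.456). It also overlapped. Of the type V chains, which start fibrils and set their width, Col5a1 had 7.52 to 8.69 CPM in CD47-KO and 6.41 to 36.6 CPM in sedentary libraries, Col5a2 8.60 to 10.7 and 4.86 to 20.7 CPM, and Col5a3 17.4 to 18.7 and 8.14 to 25.9 CPM. Col11a2, a chain of the cartilage type XI, had 3.89 to 5.23 CPM in CD47-KO and 3.14 to 14.8 CPM in sedentary libraries. Col24a1, a minor fibrillar chain known from developing bone, had 6.55, 4.79 and 2.72 CPM in CD47-KO libraries, against 1.49, 2.29 and 4.07 CPM in sedentary libraries, and a log2 fold change of 0.88 (SE 0.47, adjusted p = 0.204). The median log2 fold change of the fibrillar chains was -0.69, with 3 of 10 above 0.

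None of the 6 type IV chains passed edgeR's test against sedentary. An unadjusted p under 0.05 was found for 2 of them, beside 6025 of all 17975 genes, and DESeq2 called 1, Col4a3. Col4a1 and Col4a2, which form the common network of all basement membranes, had the lower means in CD47-KO muscle. Col4a1 had 62.5, 51.8 and 71.1 CPM in CD47-KO libraries, against 38.2, 63.0 and 173 CPM in sedentary libraries, and a log2 fold change of -0.34 (SE 0.39, adjusted p = 0.587), which became 0.21 after the GC correction and 0.00 without sedentary library 1. Col4a2 had 47.3, 51.1 and 54.0 CPM in CD47-KO libraries, against 45.3, 93.4 and 178 CPM in sedentary libraries, and a log2 fold change of -0.92 (SE 0.38, adjusted p = 0.0976). The counts of this pair may include each other's reads where the genes overlap, since the strand setting of the counting is not given in the sources used here. Col4a3, Col4a4 and Col4a5 form the network of kidney glomerulus and lung and are the genes of Alport syndrome in people. Col4a3 had 1.29, 1.23 and 1.92 CPM in CD47-KO libraries, against 0.433, 0.802 and 0.903 CPM in sedentary libraries. Every CD47-KO library was above every sedentary one, but the log2 fold change of 0.96 (SE 0.37, adjusted p = 0.0736) did not pass. It passed without exercise library 6 (1.01, adjusted p = 0.0423). Col4a4 had 3.36, 1.80 and 1.81 CPM in CD47-KO libraries, against 0.315, 1.22 and 2.04 CPM in sedentary libraries, and Col4a5 had 0.732 to 1.89 and 0.409 to 2.13 CPM. Both overlapped. The median log2 fold change of the 6 type IV chains was 0.11, with 3 above 0.

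FACIT chains had a median log2 fold change of -0.61 against sedentary, with 1 of 8 above 0, and none passed. Col22a1 was the most abundant of them, with 22.5, 13.9 and 21.3 CPM in CD47-KO libraries, against 9.78, 22.0 and 38.4 CPM in sedentary libraries. Col12a1 had 1.36 to 2.28 CPM in CD47-KO and 0 to 17.7 CPM in sedentary libraries, and Col14a1, which spaces fibrils in tendon and perimysium, 2.14 to 2.68 and 0.366 to 7.81 CPM. Col16a1 had 0.919 to 1.99 CPM in CD47-KO and 0.374 to 10.2 CPM in sedentary libraries. For each of these 4 the CD47-KO libraries lay within the sedentary range. Col19a1, a chain first found in a human muscle tumour line, was the exception, with 0.740, 0.688 and 1.32 CPM in CD47-KO libraries, against 0, 0.154 and 0.498 CPM in sedentary libraries, which do not overlap. Its adjusted p was 0.143, and 2 of the sedentary libraries had no count.

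Of the remaining classes, Col7a1, the anchoring fibril chain of skin, had 14.6 to 25.7 CPM in CD47-KO and 4.68 to 36.5 CPM in sedentary libraries. Col8a1, a network chain of vessel walls and cornea, had 2.0, 5.24 and 2.49 CPM in CD47-KO libraries, against 0.708, 1.57 and 3.69 CPM in sedentary libraries. Col13a1, a transmembrane chain of the neuromuscular junction, had 0.186 to 0.848 and 0.265 to 2.03 CPM. Col28a1, known from peripheral nerve, had 1.51, 1.07 and 1.39 CPM in CD47-KO libraries, against 0, 0.280 and 0.981 CPM in sedentary libraries. In all, 3 collagens (Col4a3, Col19a1 and Col28a1) were above and 3 (Col6a2, Col6a3 and Col18a1) below every sedentary library, a smaller share than among all genes, where 15.7% were above and 10.3% below. In the plot of single genes, the CD47-KO points of Col6a2 and Col18a1 sit under both other groups and those of Col4a3 over them.

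**Figure D2:**
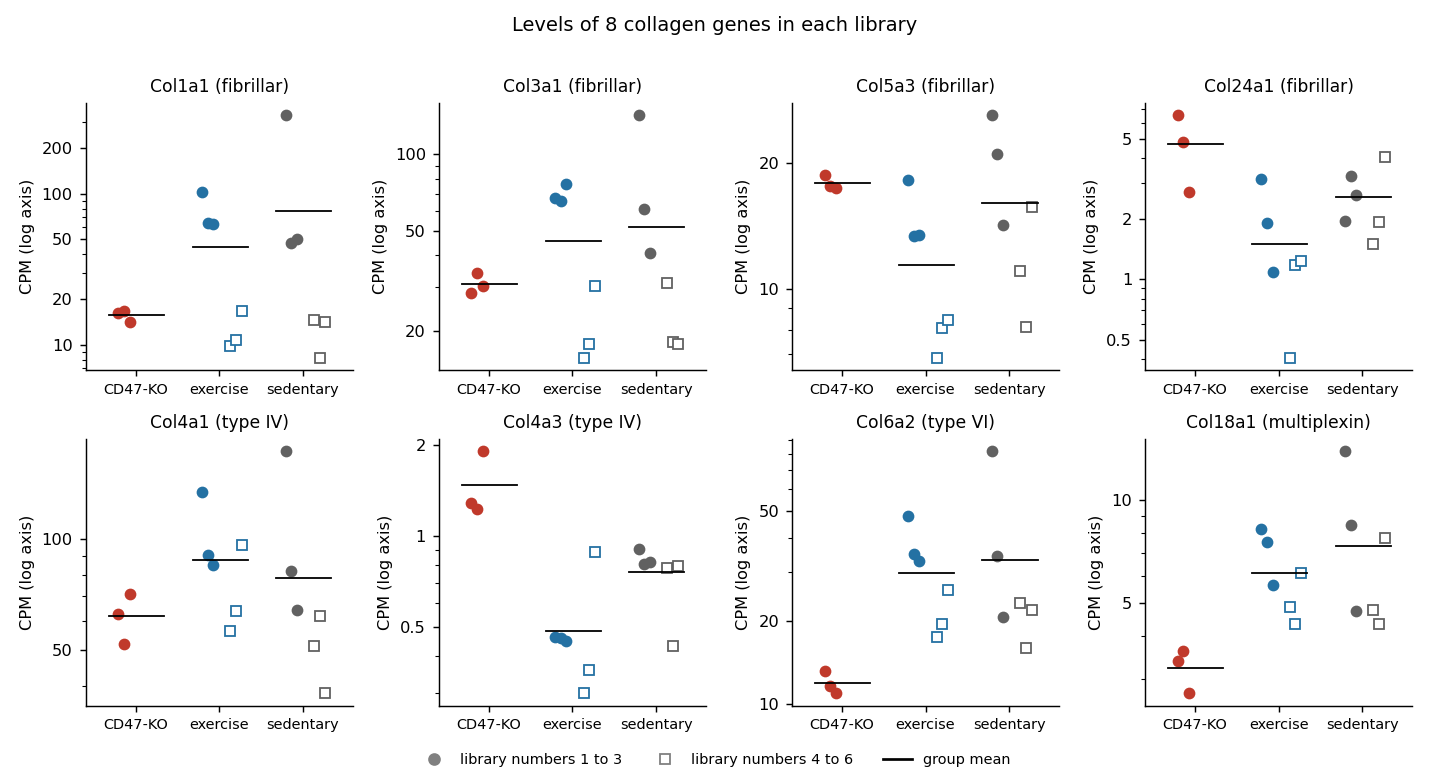
Level (CPM, log axis) of 8 collagen genes in each CD47-KO, exercise and sedentary library. Filled circles are library numbers 1 to 3, open squares numbers 4 to 6 and lines the group means. Col6a2 has 11 to 13.2 CPM in CD47-KO libraries, 17.6 to 48.0 CPM in exercise and 15.9 to 82.4 CPM in sedentary libraries.

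The remaining chains were scarce, and in each the CD47-KO range overlapped that of both other groups. The minor fibrillar chain Col27a1, of cartilage, had 0.302 to 0.970 CPM in CD47-KO, 0.222 to 2.12 CPM in exercise and 0.413 to 2.19 CPM in sedentary libraries, and Col11a1, the partner of Col11a2, 0.778 to 0.982, 0 to 1.51 and 0 to 4.42 CPM. Among the FACIT chains Col20a1 had 1.53 to 2.10 CPM in CD47-KO, 1.20 to 4.95 CPM in exercise and 1.23 to 4.33 CPM in sedentary libraries. Col9a1 had 0.395 to 1.53 CPM in CD47-KO libraries, and Col9a2, its partner in cartilage, had 0 to 0.0813, 0 to 0.191 and 0 to 0.403 CPM in CD47-KO, exercise and sedentary libraries. These levels of Col9a2 stand for a handful of counts.

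Col4a6, the basement membrane chain of smooth muscle and skin, had 0 to 0.105 CPM in CD47-KO, 0 to 0.263 CPM in exercise and 0.0861 to 0.24 CPM in sedentary libraries. Among the transmembrane chains, Col23a1 had 0.813 to 2.57, 0.378 to 3.09 and 1.00 to 6.45 CPM in the same order of groups. Col25a1, needed in mice for the growth of motor axons into muscle, had 0.139 to 0.470 CPM in CD47-KO, 0 to 0.592 CPM in exercise and 0 to 0.231 CPM in sedentary libraries. Col17a1, of the hemidesmosomes of skin, had 0.102 to 0.732, 0 to 0.195 and 0 to 0.187 CPM. Col8a2, the partner of Col8a1, had 0.536 to 0.697 CPM in CD47-KO, 0 to 2.31 CPM in exercise and 0.157 to 4.12 CPM in sedentary libraries, and Col26a1 had 0.105 to 0.584, 0.0511 to 0.675 and 0 to 1.94 CPM. None of these 11 chains passed the test in any of the 3 comparisons.

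The direction of many collagens depended on which sedentary libraries were used. Set against sedentary numbers 1 to 3 alone, 12 of 39 collagens were lower in CD47-KO and 0 higher, beside 13.8% and 19.2% of all genes. The 12 were Col1a1, Col1a2, Col3a1, Col5a1 and Col11a2 of the fibrillar class, Col4a2, Col6a1, Col6a2, Col6a3, Col15a1, Col16a1 and Col18a1. Set against sedentary numbers 4 to 6, a comparison added after the data were seen, 6 collagens were higher (Col4a4, Col4a5, Col5a2, Col8a1, Col14a1 and Col28a1) and 1 lower (Col6a2), beside 15.7% and 11.8% of all genes. Col1a1 had a log2 fold change of -3.12 against numbers 1 to 3 and 0.40 against numbers 4 to 6. With the GC correction, in fits added after the data were seen, fewer were lower against numbers 1 to 3. There 4 were lower (Col1a1, Col1a2, Col6a1 and Col6a2) and 1 higher (Col4a3), beside 1440 and 1737 of 16932 genes. Against numbers 4 to 6 the correction gave 0 lower and 6 higher, beside 1932 and 1279 of 16972 genes.

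Of 36 collagens tested both ways, 28 had a fold change below 0 against numbers 1 to 3 and 26 above 0 against numbers 4 to 6, 18 changed sign and 35 had the higher fold change against numbers 4 to 6. Over the chains tested both ways, the class medians against numbers 1 to 3 and against numbers 4 to 6 were -1.28 and 0.59 for 10 fibrillar, 0.12 and 1.19 for 5 type IV, -0.51 and 0.76 for 7 FACIT, and -1.63 and -0.27 for 4 type VI chains. Col6a2 was below the sedentary libraries in both fits, with a log2 fold change of -1.88 against numbers 1 to 3 and -0.72 (adjusted p = 0.0308) against numbers 4 to 6. After the GC correction the value against numbers 4 to 6 was -0.43 (adjusted p = 0.173) and did not pass. Col18a1 had -1.42 and -0.74 without the correction. The plot of these fits shows squares above circles for nearly every gene.

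**Figure D3:**
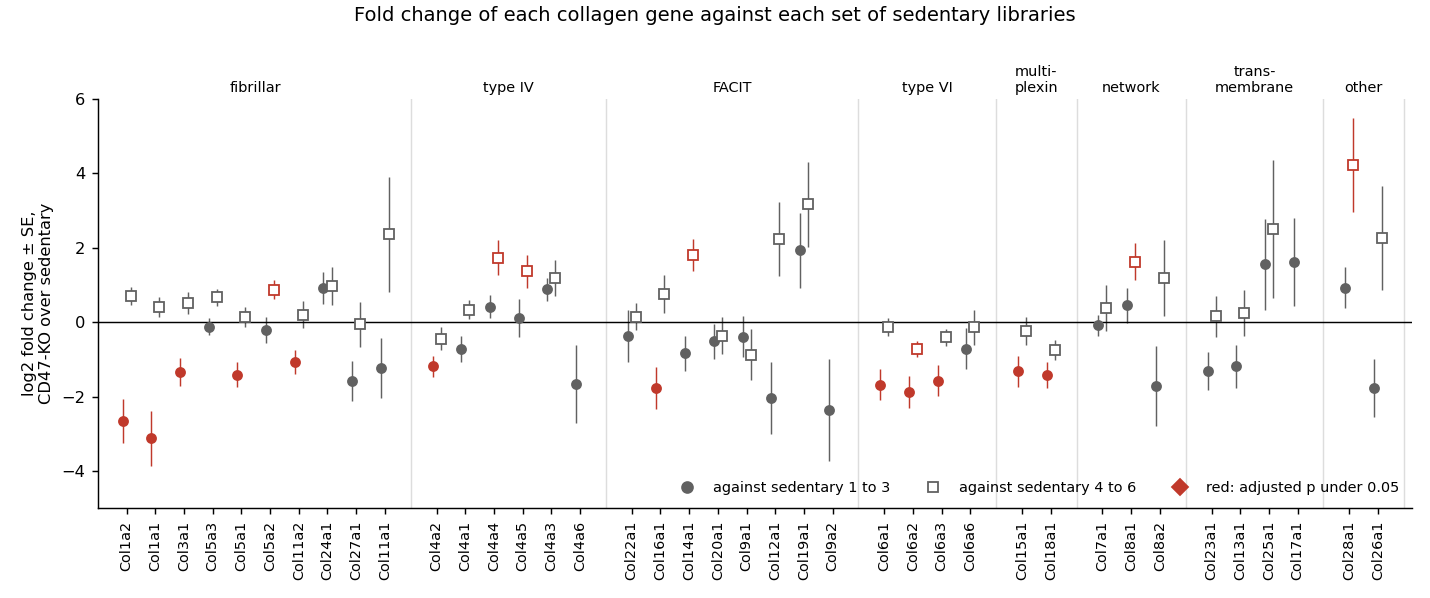
Log2 fold change (± SE) of each collagen gene in CD47-KO over sedentary libraries, against sedentary numbers 1 to 3 (circles) and 4 to 6 (open squares), by class and, within a class, from the highest to the lowest level per kb. Red marks an adjusted p under 0.05, and a gene tested in only 1 fit has 1 point. The points of Col1a1 are at -3.12 and 0.40, and those of Col6a2 at -1.88 and -0.72.

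The collagens are rich in GC, and fold changes of all genes in CD47-KO muscle followed GC content. The median transcript GC content was 55.2% for the 39 collagens and 49.7% for 17910 genes tested, and 56.8% for fibrillar, 52.5% for type IV, 52.2% for FACIT and 54.8% for type VI chains. Across genes, which are not independent replicates and share libraries and depth, Spearman's rho between GC content and the log2 fold change against sedentary was -0.494 over the 39 collagens and -0.555 over all genes. Of 21 collagens with at least 55% GC, 3 had a fold change above 0 and the median was -0.92, while 9 of the 18 with less GC were above 0 and their median was 0.03. After the GC correction the medians were -0.31 and 0.19, and the correlation over the collagens was -0.318.

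The order of the classes was the same after the correction, with medians of -0.33 for fibrillar, 0.52 for type IV, -0.18 for FACIT and -0.65 for type VI chains, against -0.09 for all genes. None of the 39 collagens passed edgeR's test then, beside 4.31% of genes called higher and 4.64% called lower. At an unadjusted p under 0.05, 4 collagens were higher and 2 lower, where 4151 of all 17975 genes were under it in either direction. In the plot against GC content, the genes right of the line moved up more in their median than those left of it.

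**Figure D4:**
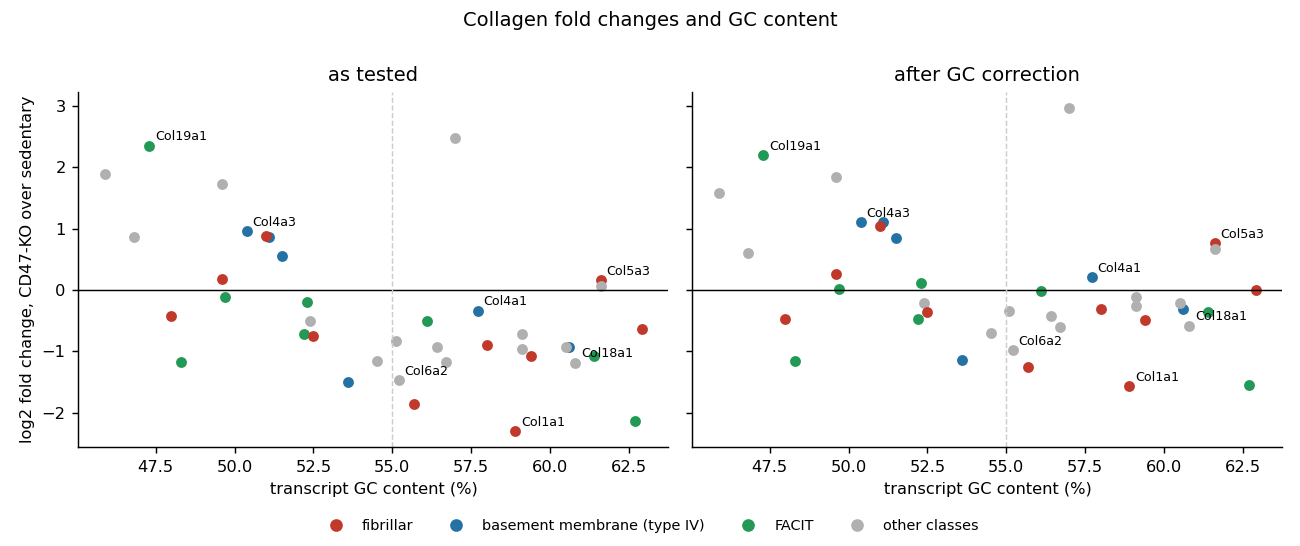
Log2 fold change of each collagen gene in CD47-KO over sedentary libraries against its transcript GC content (%), as tested and after the GC correction, with classes in colour and a dashed line at 55%. The 21 genes at or right of the line have a median of -0.92 as tested and -0.31 after the correction.

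Against exercise muscle, CD47-KO muscle had higher levels of Col4a3 and of Col24a1. These 2 of 39 collagens passed, beside 12.2% of all genes called higher, and 0 were lower, beside 8.34%. At an unadjusted p under 0.05, 4 were higher and 4 lower, where 5956 of all 17975 genes were under it in either direction. DESeq2 called 3 higher, with Col19a1, and 1 lower, Col6a2, beside 15.7% and 11.1% of all genes. After the GC correction Col4a3, Col24a1 and Col5a3 were higher and 0 lower, beside 4.51% and 4.57%. Col4a3 had 1.29, 1.23 and 1.92 CPM in CD47-KO libraries, from 101, 107 and 165 counts, against a lowest, median and highest of 0.30, 0.453 and 0.885 CPM in exercise libraries, from 23 to 67 counts. All CD47-KO libraries were above all exercise libraries, and the log2 fold change was 1.60 (SE 0.36, adjusted p = 0.00504), or 1.76 (adjusted p = 0.00521) after the GC correction. It passed in each of 15 other settings and without any single library, with log2 fold changes of 1.42 to 1.92. Col24a1 (ENSMUSG00000028197.4, chr3:145292472-145552011, plus strand) had 6.55, 4.79 and 2.72 CPM in CD47-KO libraries, against 0.404, 1.20 and 3.14 CPM in exercise libraries. Here CD47-KO library 3 was below exercise library 1, and the log2 fold change was 1.65 (SE 0.46, adjusted p = 0.0183). This call was lost without CD47-KO library 1 (adjusted p = 0.102) or 2 (0.0675).

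Col4a4 and Col4a5, other chains of the Alport network, also had higher means in CD47-KO than in exercise muscle. Col4a4 had 3.36, 1.80 and 1.81 CPM in CD47-KO libraries, against 0.548, 0.976 and 1.66 CPM in exercise libraries, which do not overlap, and a log2 fold change of 1.19 (SE 0.49, adjusted p = 0.101). It passed without sedentary library 5 (adjusted p = 0.0489). Col4a5 had 0.732 to 1.89 CPM in CD47-KO and 0.444 to 0.964 CPM in exercise libraries. Col4a1 instead had 51.8 to 71.1 CPM in CD47-KO and 56.2 to 134 CPM in exercise libraries, and Col4a2 47.3 to 54.0 and 51.3 to 137 CPM, both overlapping. The median log2 fold change of the type IV chains was 0.23, with 3 of 6 above 0.

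Among the fibrillar chains, Col5a3 had 18.7, 17.6 and 17.4 CPM in CD47-KO libraries, against 6.84, 10.9 and 18.2 CPM in exercise libraries. Exercise library 1 lay inside the CD47-KO range, and the log2 fold change of 0.65 (SE 0.33, adjusted p = 0.189) passed after the GC correction (1.16, adjusted p = 0.00869). Col1a1 had 14.2 to 16.8 CPM in CD47-KO and 9.86 to 103 CPM in exercise libraries, and Col3a1 28.5 to 34 and 15.7 to 76.7 CPM. The medians were -0.15 for fibrillar chains with 5 of 10 above 0, -0.27 for FACIT chains with 3 of 8, and -0.08 for all genes. Col19a1, at 0.688 to 1.32 CPM in CD47-KO and 0 to 0.273 CPM in exercise libraries, did not overlap (adjusted p = 0.0760).

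Of the 4 type VI chains none passed edgeR's test against exercise. An unadjusted p under 0.05 was found for 3 of them, beside 5956 of all 17975 genes, and DESeq2 called 1, Col6a2. Col6a2, with the CD47-KO values given above and 17.6, 29.4 and 48.0 CPM in exercise libraries, did not overlap and had a log2 fold change of -1.32 (SE 0.47, adjusted p = 0.0554). Col18a1, with 4.33, 5.87 and 8.26 CPM in exercise libraries, did not overlap and had -0.92 (SE 0.35, adjusted p = 0.0751). Without sedentary library 1, which enters this comparison only through the fit shared by all libraries, both passed (adjusted p = 0.00551 and 0.0205). In that fit 6 collagens were called in all, with Col6a1 and Col6a3 also lower, beside 12.4% of all genes higher and 11.2% lower. All 4 lower calls were lost with the GC correction as well, a fit added after the data were seen. It called 0 lower and 3 higher (Col4a3, Col5a3 and Col24a1), beside 998 and 904 of 17704 genes. With all libraries and no correction, the median of the type VI chains was -1.13, with 0 of 4 above 0. In all, 3 collagens were above every exercise library (Col4a3, Col4a4 and Col19a1), beside 17.5% of all genes, and 4 below (Col6a1, Col6a2, Col6a3 and Col18a1), beside 14.1%. The comparisons with exercise and sedentary share the CD47-KO libraries, so likeness between them is no independent evidence.

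The exercise libraries also differed by number. Against exercise numbers 1 to 3 alone, 2 collagens were higher (Col4a3 and Col24a1) and 8 lower (Col1a1, Col1a2, Col4a2, Col5a1, Col6a1, Col6a2, Col6a3 and Col18a1), beside 19.2% and 13.1% of all genes. Against exercise numbers 4 to 6, again added after the data were seen, 8 were higher (Col4a3, Col4a4, Col5a2, Col5a3, Col7a1, Col19a1, Col22a1 and Col24a1) and 1 lower (Col6a2), beside 15.3% and 10.7%. Col4a3, Col24a1 and Col6a2 were called in the same direction in both, but after the GC correction the value of Col6a2 against numbers 4 to 6 was -0.42 (adjusted p = 0.186) and did not pass. Of 36 collagens tested both ways, 15 changed sign. With the GC correction, in fits added after the data were seen, 1 collagen was lower against exercise numbers 1 to 3 (Col6a2). There 3 were higher (Col4a3, Col5a3 and Col24a1), beside 1578 genes lower and 1664 higher of 16932. Against numbers 4 to 6 the correction gave 0 lower and 10 higher, beside 1632 and 1278 of 16972 genes.

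No collagen passed the test between exercise and sedentary muscle. Of the 39, 0 were higher and 2 lower at an unadjusted p under 0.05, and none of 17975 genes passed by edgeR's quasi-likelihood test, where 665 had an unadjusted p under 0.05, and DESeq2 called 2 genes higher (0.0088%) and 8 lower (0.0352%), none of them a collagen. No collagen had its exercise libraries all above or all below its sedentary libraries, beside 0.1% and 0.0612% of all genes. Col9a1, a chain of the cartilage FACIT type IX, had the smallest unadjusted p. It had a lowest, median and highest of 0.196, 0.560 and 1.01 CPM in exercise libraries, against 0.950, 1.55 and 3.25 CPM in sedentary libraries. The ranges overlapped only at their ends, and the log2 fold change was -1.45 (SE 0.45, unadjusted p = 0.00533, adjusted p = 0.9998).

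Col1a1 had 9.86, 39.7 and 103 CPM in exercise libraries, against 8.18, 30.8 and 331 CPM in sedentary libraries. Its log2 fold change was -0.80 (SE 0.81) and turned to 0.73 without sedentary library 1. The class medians were -0.52 for fibrillar, -0.27 for type IV, -0.52 for FACIT and -0.03 for type VI chains, and 0.07, -0.03, -0.13 and 0.40 without sedentary library 1. Within numbers 1 to 3 alone they were -0.41 for fibrillar, -0.31 for type IV and -0.52 for FACIT chains, and within numbers 4 to 6 alone, where 7 of the 39 collagens were too low to be tested, -0.09, -0.21 and -0.14. The number of collagens with a fold change above 0 was 7 of 39 with all libraries and 24 of 39 without sedentary library 1.

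Ratios between chains within a library do not depend on library scaling and set the classes side by side. They were not corrected for GC content, which differs between the chains of a pair. It was 50.4% for Col4a3 and 57.7% for Col4a1, 52.5% for Col3a1 and 58.9% for Col1a1, and 61.6% for Col5a3 and 58.0% for Col5a1. The part of GC content in the ratios was not tested. Type I pairs Col1a1 with Col1a2, and the ratio of their levels per kb was 0.437 to 0.465 in CD47-KO, 0.419 to 0.603 in exercise and 0.440 to 0.828 in sedentary libraries. Col1a1 over Col4a1, fibril over basement membrane, was 0.289, 0.362 and 0.222 in CD47-KO libraries. It was 0.857, 0.799 and 0.825 in exercise numbers 1 to 3 and 0.196, 0.187 and 0.194 in numbers 4 to 6. In sedentary libraries it was 2.14, 0.641 and 0.866 in numbers 1 to 3 and 0.315, 0.148 and 0.417 in numbers 4 to 6. The number sets of both groups were apart on this ratio, and CD47-KO lay among or near the values of numbers 4 to 6.

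Col3a1 over Col1a1 was 1.88 to 2.27 in CD47-KO, 0.698 to 1.93 in exercise and 0.459 to 2.37 in sedentary libraries. Within type V, Col5a3 over Col5a1 was 3.31, 2.78 and 3.18 in CD47-KO libraries, 0.855 to 1.97 in exercise and 0.974 to 3.10 in sedentary libraries. All CD47-KO values were above all exercise values, and sedentary library 6 alone reached the CD47-KO range. Within type IV, Col4a3 over Col4a1 was 0.0160, 0.0183 and 0.0209 in CD47-KO, 0.00267 to 0.00713 in exercise and 0.00403 to 0.0161 in sedentary libraries. Here too only sedentary library 6 reached the lowest CD47-KO value, in a library with the lowest Col4a1 of all 15. Col4a1 over Col4a2 was 0.988 to 1.29 in CD47-KO, 0.910 to 1.16 in exercise and 0.342 to 1.11 in sedentary libraries, and Col6a1 over Col6a2 was 1.49 to 1.61, 1.26 to 1.48 and 0.924 to 1.61. The ratios were not tested, since the pairs were chosen with fold changes known.

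**Figure D5:**
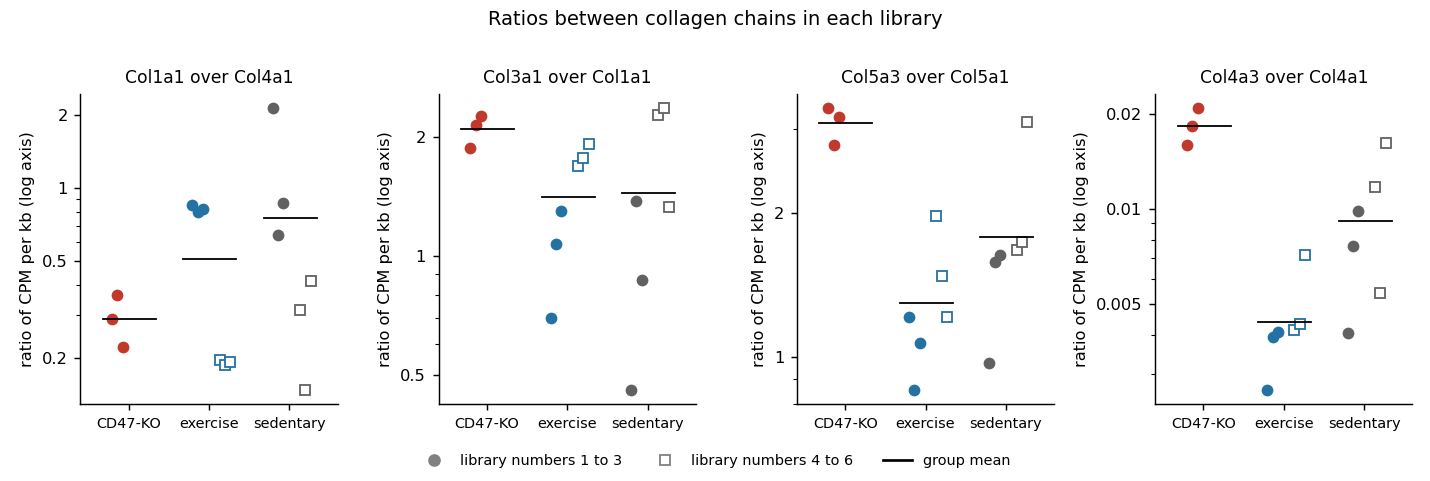
Ratio of CPM per kb (log axis) between 4 pairs of collagen chains in each CD47-KO, exercise and sedentary library. Filled circles are library numbers 1 to 3, open squares numbers 4 to 6 and lines the group means. Col5a3 over Col5a1 is 2.78 to 3.31 in CD47-KO, 0.855 to 1.97 in exercise and 0.974 to 3.10 in sedentary libraries.

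Genes that make, finish and bind collagen were read from lists put together by function, with earlier results of these data known. The counts below stand beside 11.9% of all genes called higher and 8.75% called lower against sedentary, 4.31% and 4.64% after the GC correction, and 12.2% and 8.34% against exercise. Among 20 genes tested for collagen modification and folding, 4 rose and 4 fell in CD47-KO against sedentary muscle, with a list median log2 fold change of -0.45, beside -0.11 for all genes. Pdia3, an endoplasmic reticulum chaperone of disulfide bonds, averaged 44.5 ± 2.80 CPM in CD47-KO and 26.0 ± 3.53 CPM in sedentary libraries (SD, n = 3 and 6), with a log2 fold change of 0.78 (adjusted p = 0.0110). Tmem38b, an endoplasmic reticulum cation channel, had 0.90, and Plod2, which hydroxylates lysines of the collagen ends, 1.45. The lysyl hydroxylases Plod1 and Plod3 had -0.79 and -0.70, and Crtap, a partner of the prolyl 3-hydroxylase, -1.07. After the GC correction 1 of the 20 was higher and 1 lower, and none of the 6 genes just named passed.

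Of 12 genes for processing and crosslinking, 1 rose and 0 fell, no larger a share than among all genes. Lox, lysyl oxidase, which starts the crosslinks between collagen chains, averaged 12.6 ± 4.17 CPM in CD47-KO and 3.11 ± 0.691 CPM in sedentary libraries. Its log2 fold change was 2.01 (adjusted p = 0.000176) against sedentary and 2.30 (adjusted p = 4.8e-05) against exercise, and it passed after the GC correction (1.36, adjusted p = 0.0117, against sedentary). Pcolce, the enhancer of procollagen C-terminal cleavage, had -0.96 (adjusted p = 0.0698). Of 13 genes for collagen breakdown and its inhibitors, 1 fell, Mmp15, a membrane-bound metalloproteinase, with 13.0 ± 1.75 CPM in CD47-KO and 23.9 ± 2.92 CPM in sedentary libraries and a log2 fold change of -0.88 (adjusted p = 0.00157). Of 8 collagen receptors, 1 rose, Itgb1, the shared subunit of the collagen-binding integrins, with 123 ± 10.9 CPM in CD47-KO and 70.2 ± 21.6 CPM in sedentary libraries and 0.80 (adjusted p = 0.0497). Neither passed after the GC correction. Where no gene was called, the smallest p was that of Fap among breakdown genes above 0 (0.96, adjusted p = 0.141). Among receptors below 0 it was that of Ddr1 (-0.63, adjusted p = 0.0668).

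Of 15 proteoglycans and glycoproteins that sit on fibrils, 4 rose and 0 fell against sedentary, while the list's median log2 fold change was -0.41. Ogn, osteoglycin, averaged 27.2 ± 1.72 CPM in CD47-KO and 3.75 ± 2.65 CPM in sedentary libraries, with a log2 fold change of 2.86 (adjusted p = 0.000561), or 1.20 (adjusted p = 0.0411) after the GC correction. Dcn, decorin, which binds type I fibrils, averaged 234 ± 25.7 CPM in CD47-KO and 89.5 ± 32.8 CPM in sedentary libraries, with 1.39, which became -0.31 after the GC correction. Aspn, asporin, had 2.71 and 0.81 after the correction. Of the 15, 6 had a fold change above 0, and Sparc had the smallest p among those below it (-1.01, adjusted p = 0.0634). None of 12 basement membrane partners passed, where Tinagl1 had -0.86 (adjusted p = 0.0722) and Nid1, nidogen, which links laminin to type IV collagen, 0.40 (adjusted p = 0.359), beside a list median of -0.61. Set against numbers 1 to 3 alone, however, 7 of the 12 were lower in CD47-KO than in sedentary and 5 lower than in exercise muscle, beside 13.8% and 13.1% of all genes. Set against numbers 4 to 6, 1 was higher and 0 lower in either comparison.

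The other lists also depended on the number sets. Against sedentary numbers 1 to 3, 5 of 13 breakdown genes were lower and 0 higher, and 3 of 15 fibril-bound proteoglycans were lower and 5 higher. Against numbers 4 to 6, 2 breakdown genes were lower and 0 higher, and 0 proteoglycans were lower and 5 higher. Of all genes, 13.8% were lower and 19.2% higher against numbers 1 to 3, and 11.8% and 15.7% against numbers 4 to 6. The median of the proteoglycans was -0.91 against sedentary numbers 1 to 3 and 1.18 against numbers 4 to 6, and that of the crosslinking genes -0.76 and 0.31. Against exercise the counts of genes higher and lower were 3 and 4 for modification and folding, 1 and 0 for crosslinking, 0 and 2 for breakdown, 0 and 0 for receptors, 4 and 0 for fibril-bound proteoglycans and 0 and 0 for basement membrane partners. Exercise against sedentary called none in any of these lists.

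Markers of other cell types were read beside these results, with 11.9% of all genes called higher and 8.75% called lower against sedentary. Endothelial markers, 8 genes, summed to 179 to 220 CPM in CD47-KO, 196 to 364 CPM in exercise and 173 to 421 CPM in sedentary libraries, and 2 of the 8 were lower in CD47-KO than in sedentary muscle. Mural cell markers, 8 genes, summed to 529 to 586 CPM in CD47-KO, 314 to 428 CPM in exercise and 314 to 427 CPM in sedentary libraries, with 1 higher and 2 lower against sedentary. Of these, Rgs5 alone averaged 267 CPM in CD47-KO, 81.4 CPM in exercise and 88.5 CPM in sedentary libraries. Its log2 fold change against sedentary was 1.59, or 0.51 (adjusted p = 0.337) after the GC correction. Only 2 of the 8 mural markers had a fold change above 0 against sedentary, and the list median was -0.59. Schwann cell markers, 8 genes, summed to 30.5 to 56.5 CPM in CD47-KO, 35.9 to 133 CPM in exercise and 44.3 to 272 CPM in sedentary libraries, with 2 lower. Of the tendon and cartilage markers 0 of 9 tested passed, of the fibroblast markers 1 was higher and 1 lower of 10, of the adipocyte markers 0 of 7 passed, and of the macrophage markers 1 was higher of 8. The adipocyte sum was 606 to 814 CPM in CD47-KO, 461 to 898 CPM in exercise and 283 to 763 CPM in sedentary libraries, and the macrophage sum was 27.9 to 37.8, 15.4 to 46.5 and 11.6 to 59.1 CPM in the same order. Most of the adipocyte sum was Plin4, with means of 661 CPM in CD47-KO, 621 CPM in exercise and 558 CPM in sedentary libraries, so that sum mainly follows 1 gene. Lep and Retn were at 0 in exercise library 5, Plin1 in sedentary library 4, Retn in sedentary library 5 and Adgre1 in sedentary library 6, and no marker of the other lists of this paragraph except the tendon one was at 0. Of the muscle fibre markers 4 of 10 were lower. Set against sedentary numbers 1 to 3 and then 4 to 6, 3 and 6 of 10 muscle fibre markers and 5 and 1 of 8 Schwann cell markers were lower, beside 13.8% and 11.8% of all genes, and 0 and 3 of 9 tendon and cartilage markers were higher, beside 19.2% and 15.7%. After the GC correction, against all 6 sedentary libraries, 1 of 10 muscle fibre markers was lower, and 1 fibroblast marker was higher and 1 lower. No marker of the other lists passed then, beside 4.31% of all genes called higher and 4.64% called lower. The part of these cells in the collagen differences was not tested.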

How the data were processed

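RNA was prepared from skeletal muscle with the NEBNext Ultra RNA kit, from RNA with an integrity number above 7, per the labels' protocols. Trimmomatic 0.30, HISAT2 2.0.1, HTSeq 0.6.1 and the build GRCm38 were used, per the submitters' processing notes, and the strand setting is not given in the sources used here. The authors deposited gene counts as 1 table, 22798 symbols by 15 libraries, and each column was matched to a sample (0 were not). Whether values of 4, 8 and 12, which are more frequent than their neighbours, come from how reads were counted was not tested. No 2 libraries of a group were copies (lowest chi-square per degree of freedom 62.7, sedentary 4 and 5).

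Counts were filtered with filterByExpr (minimum count 10), scaled with TMM factors (0.795 to 1.235) and passed to edgeR 4.0.16 (R 4.3.3). The quasi-likelihood F test was run with robust dispersion and a fit of all 15 libraries by group. A prior count of 2 was set only for log2-cpm, in the GC correction and in the correlations between libraries, and the fold changes used edgeR's default. The Benjamini-Hochberg adjustment ran over the 17975 tested genes at a threshold of 0.05, and each SE is the fold change divided by the root of its F. Tables and plots were made with pandas 2.3.3 and matplotlib 3.10.9. Of the symbols, 22711 matched the GENCODE M21 annotation of GRCm38 once, for GC content, length and place, 48 several times and 39 not at all. The GC correction used, as an offset, a lowess curve (span 0.3) of each library's deviation from the mean log2-cpm on GC content.

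Collagen classes, pathway lists, markers and the members given with fold changes were chosen with earlier results of these data known, so no list was tested as a set. Of each pathway list, up to 3 called genes with the smallest p were named per direction in CD47-KO against sedentary, or the smallest p where none was called. Alternatives were RLE factors, DESeq2 1.42.0, a stricter and no filter on low counts, a fit restricted to the compared groups, the replicate number as a block, corrections for GC content and length, number sets alone, and leaving out libraries.

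Same-numbered exercise and sedentary libraries correlated by 0.194 to 0.364 in their deviations from group means. Other numbers of the same set correlated as well (median 0.265, n = 12), so the check does not tell pairs from sets. For CD47-KO the correlations were -0.102 to 0.047 with sedentary and -0.0278 to 0.149 with exercise, which do not pair the libraries.

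The fit was tested on simulated counts. Of 100 genes each changed by a log2 fold change of 1 and of 2, edgeR found 10 and 79 in CD47-KO against sedentary, with 7 of 17315 genes called falsely. It found 22 and 74 in CD47-KO against exercise (6 false of 17348) and 33 and 92 in exercise against sedentary (9 false of 17435). No other genes were changed in the simulation, which also held no number sets and no GC trend. In the data, 3719 of 17975 genes were called in CD47-KO against sedentary. The Benjamini-Hochberg adjustment was thus stricter in the simulation, and these shares do not give the share of real changes found. Protein sequence features of the chains were not analysed here.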

Additional observations from a re-analysis of the deposited data

Results flagged for a closer look

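In each group of 6 libraries, the highest and lowest value of every collagen was set against the others by Dixon's test at the 95% level. Of 78 combinations of gene and group, 20 had such a value. The test's rate of 1 in 20 is for independent, normally distributed values and was exceeded by all genes too, so their shares are given beside the counts. By the same rule 4 of 39 collagens (10.3%) had such a value in exercise, against 7.76% of all 17975 genes tested, and 16 of 39 (41%) in sedentary, against 14.2% of all genes. Sedentary library 1 held 14 of the 20, each as the highest of its group, where it stood apart in this way for 3.14% of all genes. These 14 values share a library and are not independent of each other.

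Among the fibrillar chains, sedentary library 1 had 446 CPM of Col1a2 (15.5 to 88.9 in the other 5), 331 CPM of Col1a1 (8.18 to 49.9), 143 CPM of Col3a1 (17.8 to 60.8), 20.7 CPM of Col5a2 (4.86 to 7.90) and 4.42 CPM of Col11a1 (0 to 1.34). It had 173 CPM of Col4a1 (38.2 to 81.8) and 2.13 CPM of Col4a5 (0.409 to 0.927) among the type IV chains. Of the FACIT chains it had 17.7 CPM of Col12a1 (0 to 3.33) and 10.2 CPM of Col16a1 (0.374 to 3.36). All 3 main type VI chains were high in it, with 94.4 CPM of Col6a1 (12.3 to 35.1), 82.4 CPM of Col6a2 (15.9 to 34.4) and 47.1 CPM of Col6a3 (10.3 to 19.4), as were Col8a2 with 4.12 CPM (0.157 to 1.20) and Col26a1 with 1.94 CPM (0 to 0.687). The same library had the highest sum of tendon and cartilage markers of all 15, and its part in these levels was not tested.

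Sedentary library 6 had 3.25 CPM of Col9a1, where the other 5 had 0.950 to 1.69. Exercise library 1 had 1.51 CPM of Col11a1 (0 to 0.324 in the others) and 1.51 CPM of Col13a1 (0.371 to 0.782), and exercise library 3 had 5.18 CPM of Col6a6 (1.30 to 2.11). For Col4a3, exercise library 6 stood above its group with 0.885 CPM (0.30 to 0.461) and sedentary library 5 below its group with 0.433 CPM (0.782 to 0.903).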

How the results depend on the processing

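Shares in brackets are those of all genes called. For CD47-KO against sedentary, where 2 collagens were called (20.7%), the count was 4 with DESeq2 (28.1%), 12 with numbers 1 to 3 alone (33%), and 0 with only the groups compared (15.3%), with the GC correction (8.95%), with GC and length correction (9.07%), and without sedentary libraries 1 and 6 (21.3%). For CD47-KO against exercise, also with 2 calls (20.6%), it was 4 with DESeq2 (26.8%), 8 with only the groups compared (27.8%), 10 with numbers 1 to 3 alone (32.3%) and 7 without sedentary libraries 1 and 6 (28.8%). Leaving out 1 library gave 0 to 2 calls against sedentary and 1 to 6 against exercise. Exercise against sedentary had 0 calls in every setting run. With the replicate number as a block, which pairs no CD47-KO library by the check above, 13 collagens were called against sedentary (26.9%; 5 with GC correction, 13.7%) and 13 against exercise (27.7%; 7 with GC correction, 14.4%), with medians against exercise of -0.67 for fibrillar, -0.10 for type IV and -1.59 for type VI chains. The block called no collagen in exercise against sedentary, whose same-numbered libraries the check does not show to be pairs.

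The type IV median was 0.53 against sedentary and 0.97 against exercise with a stricter filter on low counts, which removes Col4a6. The 5 chains it keeps had medians of 0.56 and 0.95 without that filter. Against exercise it was 0.59 with the GC correction and 0.39 with GC and length correction, and 0.05 to 0.36 with 1 library left out, while the type VI median was -0.69 with the GC correction. Col4a1 against sedentary was 0.21 with the GC correction, 0.06 with GC and length correction and 0.02 with GC correction and block, and -0.42 to 0.00 with 1 library left out. Col1a1 in exercise against sedentary was 0.57 without sedentary libraries 1 and 6, and -1.24 to 0.73 with 1 library left out.

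The following settings were added after seeing the data. With the GC correction and numbers 1 to 3 alone, 5 collagens were called against sedentary (18.8%), 1 higher and 4 lower. Against exercise 4 were called (19.1%), 3 higher and 1 lower, with a type IV median of 0.40. With the GC correction and without sedentary library 1, 0 were called against sedentary (10.1%), with medians of 0.18 for fibrillar, 0.80 for type IV, 0.31 for FACIT and -0.25 for type VI chains, 0.15 for Col3a1 and 0.49 for Col4a1. Against exercise 3 were called (10.7%), 3 higher and 0 lower. The type IV and VI medians against exercise were 0.59 and -0.69, and Col1a1 in exercise against sedentary was 0.68. Against numbers 4 to 6 the medians leave out Col4a6 and Col9a2, which were too low to be tested there. Against sedentary numbers 4 to 6, 7 were called (27.5%), with medians of 0.59, 1.19, 0.76 and -0.27 in the same order of classes, 0.40 for Col1a1, 0.52 for Col3a1 and 0.34 for Col4a1. With the GC correction as well, 6 were called (18.9%), with 0.78, 1.18, 1.22 and -0.07, and 0.78 for Col1a1, 0.68 for Col3a1, 0.68 for Col4a1, 0.02 for Col4a2 and 0.21 for Col6a1. Against exercise numbers 4 to 6, 9 were called (26%), with 0.79, 0.76, 0.80 and -0.57, and 10 with the GC correction (17.1%), with 0.97, 0.91, 1.01 and -0.22.

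The cause of these changes was not tested. With 3 CD47-KO libraries, a collagen that was not called is not shown to be equal, and levels under 1 CPM rest on few counts.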
